A study of Mus musculus with 12 samples.

Results

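The response described here is that of mouse bone marrow-derived macrophages labelled as knockouts of MGMT (KO) to DMXAA, an agonist of the innate immune adaptor STING. It is measured by RNA-seq in 6 libraries, 3 of KO cells under the vehicle DMSO and 3 of KO cells under DMXAA, both at 24 h. Its members are all genes whose normalized count averaged at least 10 over these 6 libraries, 12704 of the 15557 genes listed. The series holds 12 libraries in 4 groups of 3, the other groups being wild-type macrophages (WT, with the genotype written WTfl/fl) under DMSO and under DMXAA. The labels name no Cre driver and no deleted exon, give no age or sex of the mice, and do not say whether the samples of a group came from separate mice, so p-values measure only the spread between these samples, which may be technical. The series text states the dose of DMXAA as 10 mg/ml, a unit that could not be checked in the sources used here, and all libraries carry the same batch label.

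STING sits on the endoplasmic reticulum and is switched on by the cyclic dinucleotide that the enzyme cGAS makes when it meets DNA in the cytosol. DMXAA binds mouse STING directly and so bypasses cGAS. STING then recruits the kinase TBK1, which activates the transcription factor IRF3 and, with NF-kappaB, the genes of type I interferon; secreted interferon acts back on the macrophage through its receptor, the JAK kinases and the STAT proteins, and turns on the interferon-stimulated genes. MGMT takes alkyl adducts off guanine bases in DNA, and what its loss does to this response is the question that the title of the series raises.

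Depth in listed genes ran from 79.9 to 92.4 M reads (M for mega) in the KO libraries under DMSO and from 94.1 to 98.1 M under DMXAA, so the DMXAA libraries were all deeper. On log2 values the libraries of a group had a Pearson correlation across genes of 0.990 to 0.993, and libraries of different groups one of 0.910 to 0.916. The defining macrophage genes were abundant in both groups. Adgre1, which encodes the surface protein F4/80, had normalized counts of 356919, 354057 and 366990 under DMSO and 301018, 291068 and 305218 under DMXAA. Cd68, a lysosomal glycoprotein of macrophages, had 153833, 148594 and 159346 under DMSO and 179096, 183412 and 188774 under DMXAA. Of the markers of other cells, 1 of 7 B cell, 1 of 10 T and NK cell, 1 of 7 mast cell and basophil, 2 of 12 neutrophil and 0 of 7 erythroid genes reached the level of a member. The summed level of the B cell genes in the table was 32.3 to 60.6 under DMSO and 31.6 to 54.7 under DMXAA, and that of the T and NK cell genes 51.0 to 66.6 and 65.2 to 96.9. Stromal markers were uneven, with a summed level of 158 to 679 under DMSO and 74.7 to 127 under DMXAA. Col1a1, a collagen gene of fibroblasts, had 8.95, 169 and 202 under DMSO and 18.9, 24.0 and 47.8 under DMXAA. KO DMSO replicate 1 was low in Col1a1 and the other DMSO libraries were high, and the part of stromal cells in any result was not tested.

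Mgmt itself was still read in every KO library. It had normalized counts of 108, 119.7 and 164 under DMSO and 53.6, 66.4 and 36.6 under DMXAA, from 121, 141 and 162 reads against 51, 61 and 33. All DMXAA libraries lay below all DMSO libraries, and the log2 change was -1.32 (SE 0.254, adjusted p = 9.71e-04). In WT cells, on the scale of their own table, Mgmt went from 222, 208 and 241 to 120, 90.5 and 114, a log2 change of -1.04, and the responses of the genotypes differed by -0.28 (SE 0.307, adjusted p = 0.671), which was not called. Mgmt lies at chr7:136894614-137130266 of mm10 on the plus strand. Reads were counted per gene, so these values cannot tell from which exons the reads come, and the loss of an exon was not tested.

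DMXAA changed the level of most of the genes measured. Of the 12704 members, 8462 (66.6%) were called, 4282 higher (33.7%) and 4180 lower (32.9%), at a Benjamini-Hochberg adjusted p of 0.05 in limma. Called changes of at least 2-fold numbered 2559 (20.1%), with 1143 genes (9.0%) higher and 1416 (11.1%) lower. The strongest changes were mostly increases: 569 genes rose and 476 fell at least 4-fold, 214 rose and 60 fell at least 16-fold, and 83 rose and 6 fell at least 64-fold. The 3 libraries of each group did not overlap in 9021 genes (71.0%). In 495 members the mean of a group was under 10, so they reached the level of a member through the other group, and 379 of these are among the called genes. For such genes, Cxcl9 and F13a1 among them, the choice of members favours a difference, and the values only describe it. The median change over all members was -0.0033 on the log2 scale, and the 5th and 95th percentiles were -1.76 and 1.78.

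The balance of directions depends on how the libraries are scaled. On the deposited scale 50.6% of the called genes were higher. Setting the upper quartile equal in all libraries gave 36.8%, and setting the library totals equal gave 20.3%. These choices shift the median of all genes by -0.15 and -0.39, so an increase of less than 0.39 turns into a decrease when totals are made equal. Precision also depends on the level of a gene. Genes with a mean of 10 to 100 had a median standard error (SE) of 0.355 and 47.4% of these 1987 genes were called, while genes above 10000 had a median SE of 0.0465 and 83.3% of these 1686 genes were called. Among 496 long noncoding genes 143 were higher and 93 lower, and among 11677 protein-coding genes 3984 were higher and 3964 lower.

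**Figure D1:**
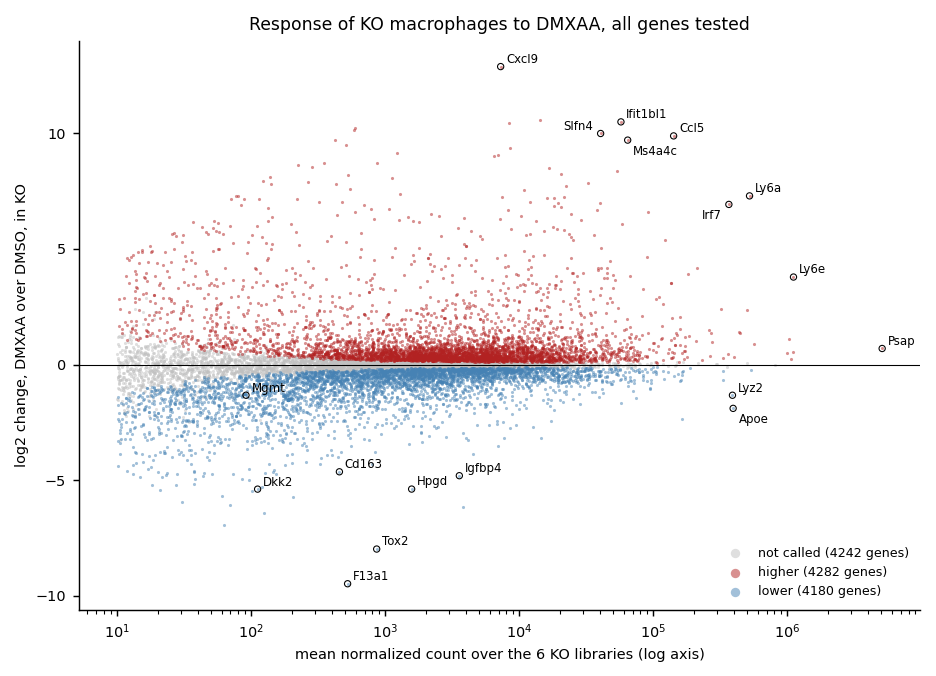
Log2 change of each member (DMXAA over DMSO, y axis) against its mean normalized count over the 6 KO libraries (x axis, log scale), with 4282 higher genes in red, 4180 lower genes in blue and 4242 uncalled genes in grey. Called changes close to 0 are seen mostly at high counts, and increases reach further from 0 than decreases.

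Among the genes that rose most, the chemokine and antiviral genes led. Cxcl9, which encodes a chemokine that attracts T cells through CXCR3, had normalized counts of 0.895, 0.849 and 1.01 under DMSO and 14591, 14275 and 14649 under DMXAA. The DMSO values come from 3 reads over the whole group, so the ratio of 15888 has a 95% counting interval of 5436 to 77046, which covers counting error only; the log2 change was 12.89. Every DMXAA library was far above every DMSO library. Cxcl11, which encodes another CXCR3 chemokine, had no reads under DMSO and 901, 1187 and 1408 normalized counts under DMXAA, at least 1272-fold more against a floor of 3 reads over the group. Lipg, a lipase of the cell surface, went from no reads to 1181, 1184 and 1222, at least 1309-fold. Apol9a, an apolipoprotein L gene, went from no reads to 800.4, 905 and 814, at least 920-fold. These 3 genes were silent in all DMSO libraries at this depth and present in all DMXAA libraries. Ccl5, a chemokine for T cells and monocytes, had 239.9, 358 and 303 under DMSO and 258355, 279274 and 310598 under DMXAA, a log2 change of 9.89 (SE 0.123, adjusted p = 9.48e-13).

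The rest of the 15 highest included genes of cell-autonomous defence. The GTPase gene Gbp4 had 5.37, 15.3 and 60.6 under DMSO and 26108, 28746 and 29981 under DMXAA, with uneven DMSO libraries, and a log2 change of 10.57 (SE 0.608). Ifit1bl1, of a family that binds foreign RNA, had 77.0, 62.0 and 99.9 under DMSO and 104694, 118669 and 119972 under DMXAA (log2 10.50, SE 0.14). Slfn4, of the Schlafen family, had 80.6, 92.5 and 63.6 under DMSO and 73071, 81536 and 87526 under DMXAA (log2 9.99, SE 0.121). In each of these genes the lowest DMXAA library was above the highest DMSO library by orders of magnitude. The others were Ms4a4c, a membrane protein gene, with 158, 129.9 and 173 under DMSO and 123520, 129953 and 131783 under DMXAA (log2 9.71, SE 0.0904). Plac8, a marker of monocytes, had 10.7, 6.79 and 18.2 under DMSO and 15522, 17448 and 17195 under DMXAA (log2 10.44, SE 0.255). Iigp1, an immunity-related GTPase gene, had 22.4, 25.5 and 28.3 under DMSO and 15699, 17728 and 17904 under DMXAA (log2 9.35, SE 0.102). Slfn1, Gbp11 and Apol9b changed by 9.01 (SE 0.271), 9.50 (SE 0.394) and 9.14 (SE 0.393). Lack of overlap between the groups was a condition for all of the 15 highest. Ly6c1, which encodes a monocyte surface antigen, was the uneven member: it had 8.95, 10.2 and 10.1 under DMSO and 36797, 1557 and 3328 under DMXAA, so the first DMXAA library stood more than 10-fold above the other DMXAA libraries, and its change of 9.07 has an SE of 0.879. Ly6c1 and its neighbour Ly6c2 are near copies, between which reads may have been split.

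Among the genes that fell most were F13a1, Tox2, Hpgd, Cd163 and Ndrg2. F13a1, the A subunit of coagulation factor XIII and a marker of monocytes and resident macrophages, had normalized counts of 1119, 1036 and 982 under DMSO and 0, 2.18 and 0 under DMXAA. Only 2 reads remained under DMXAA, so the ratio of 1451 has a 95% counting interval of 401 to 11989, and the log2 change was -9.47. Tox2, which encodes a nuclear HMG-box protein, had 1698, 1762 and 1650.3 under DMSO and 4.21, 58.8 and 0 under DMXAA (log2 -7.97, SE 1.1), and its DMXAA libraries were uneven. Hpgd, the enzyme that inactivates prostaglandins, had 2695, 3099.7 and 3414 under DMSO and 97.8, 54.4 and 71.1 under DMXAA (log2 -5.38, SE 0.184). Cd163, the scavenger receptor for haemoglobin, had 883, 889 and 852 under DMSO and 40.0, 34.8 and 28.9 under DMXAA (log2 -4.63, SE 0.146). The DMXAA libraries of Hpgd and Cd163 lay together far below all DMSO libraries. Ndrg2, a stress-response gene, had 6119.9, 6589 and 9659 under DMSO and 127, 45.7 and 187 under DMXAA (log2 -6.13, SE 0.407). Others among the 15 lowest were the semaphorin gene Sema6c (-6.40), the RNA-binding protein gene Samd4 (-5.71), the Wnt inhibitor gene Dkk2 (-5.38), the calcium pump gene Atp2b4 (-5.29), Igfbp4 (-4.80), the immediate early factor gene Egr3 (-4.72), the N-acetylaspartate synthase gene Nat8l (-4.69), Thsd1 (-4.63) and the laminin gene Lama3 (-4.55). Lack of overlap between the groups was a condition for the 15 lowest, so it adds nothing to their changes. Of the genes given here without single libraries, Sema6c and Samd4 differed most from the authors' deposited changes, which were -5.03 and -4.86. The sizes of these 2 changes are less certain.

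**Figure D2:**
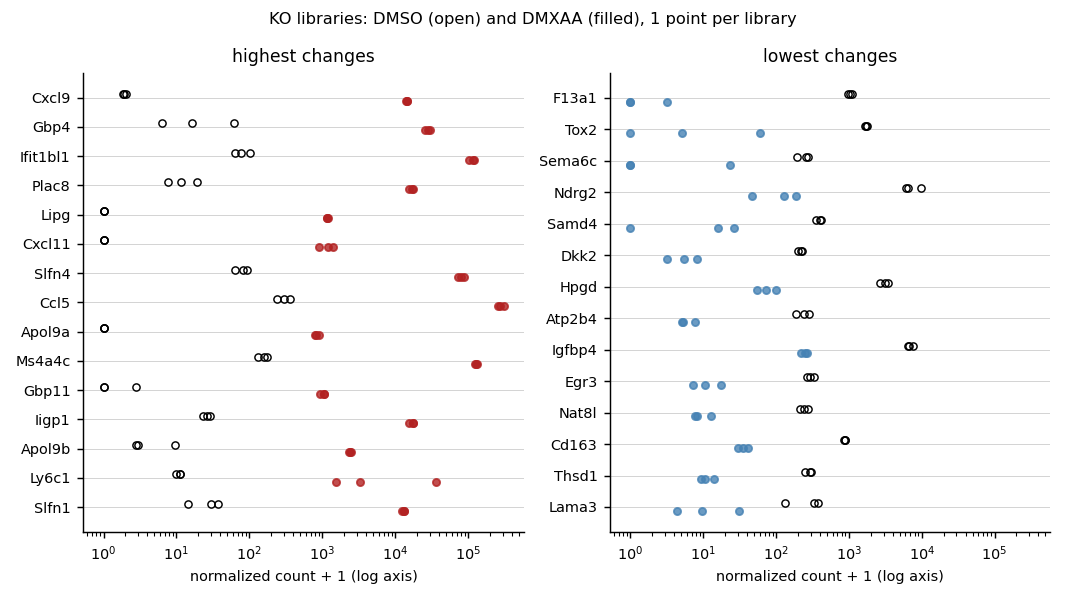
Normalized count plus 1 (x axis, log scale) in each KO library for the 15 most increased named genes and the most decreased ones, with open circles for the 3 DMSO libraries and filled circles for the 3 DMXAA libraries. The genes were chosen so that the groups are apart. Ly6c1 spreads over more than 10-fold under DMXAA. Lipg, Cxcl11 and Apol9a sit at 1, which is a count of 0, under DMSO.

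The promoters of leading genes are shown so that what lies upstream of genes with the strongest responses can be read, and these are 250 bases before the start of the gene in RefSeq GRCm38.p6 (mm10), written from 5′ to 3′ on the strand of the gene. Capitals mark a core of the interferon-stimulated response element (ISRE; GAAANNGAA on either strand, bound by IRF factors and by complexes that hold STAT2 and IRF9), a kappaB site (GGGACTTTC or GGGAATTTC on either strand, bound by NF-kappaB) and a TATA box (TATAAA on either strand). Windows of 300 bases, with 50 bases after the start added, held the ISRE core in 8.57%, a kappaB site in 0.622% and a TATA box in 14.2% of all 27025 windows of the table. The Cxcl9 window (chr5:92328080-92328329, minus strand) holds an ISRE core at -175, a kappaB site at -154 and a TATA box at -195, counted back from the start. The Ifit1bl1 window (chr19:34601969-34602218, minus strand) holds ISRE cores at -192 and -103 and TATA boxes at -132 and -35. The windows of Plac8 (chr5:100572206-100572455, minus strand) and Slfn4 (chr11:83174936-83175185, plus strand) hold neither an ISRE core nor a kappaB site in these letters, and Slfn4 has a TATA box at -19. F13a1 (chr13:37050245-37050494, minus strand) and Tox2 (chr2:163202877-163203126, plus strand) have none of the 3 motifs. Each motif was searched on its own, so matches may overlap. A match of letters is a description and no binding was measured.
Cxcl9: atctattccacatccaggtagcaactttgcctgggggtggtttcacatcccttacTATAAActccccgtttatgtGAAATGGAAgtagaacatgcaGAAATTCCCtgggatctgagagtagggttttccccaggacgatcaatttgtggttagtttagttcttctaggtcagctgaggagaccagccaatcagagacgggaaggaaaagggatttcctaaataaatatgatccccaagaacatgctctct
Ifit1bl1: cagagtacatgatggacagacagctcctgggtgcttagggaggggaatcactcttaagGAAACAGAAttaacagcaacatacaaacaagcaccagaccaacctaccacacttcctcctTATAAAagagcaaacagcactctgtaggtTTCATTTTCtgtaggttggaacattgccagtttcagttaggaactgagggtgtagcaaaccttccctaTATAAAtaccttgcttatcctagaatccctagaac
Plac8: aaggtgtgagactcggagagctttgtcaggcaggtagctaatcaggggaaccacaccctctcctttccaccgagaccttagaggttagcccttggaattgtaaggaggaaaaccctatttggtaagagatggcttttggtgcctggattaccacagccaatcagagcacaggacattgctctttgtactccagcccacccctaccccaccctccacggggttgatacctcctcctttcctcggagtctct
Slfn4: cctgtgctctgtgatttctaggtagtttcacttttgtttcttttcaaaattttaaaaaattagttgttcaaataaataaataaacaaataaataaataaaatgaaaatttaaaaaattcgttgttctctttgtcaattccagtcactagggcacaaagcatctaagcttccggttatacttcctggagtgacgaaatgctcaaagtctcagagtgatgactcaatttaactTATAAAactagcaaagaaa
F13a1: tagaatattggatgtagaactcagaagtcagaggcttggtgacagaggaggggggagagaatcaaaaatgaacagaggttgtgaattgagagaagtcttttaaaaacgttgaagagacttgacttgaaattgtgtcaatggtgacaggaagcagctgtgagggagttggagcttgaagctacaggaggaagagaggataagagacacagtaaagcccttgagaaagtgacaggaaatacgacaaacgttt
Tox2: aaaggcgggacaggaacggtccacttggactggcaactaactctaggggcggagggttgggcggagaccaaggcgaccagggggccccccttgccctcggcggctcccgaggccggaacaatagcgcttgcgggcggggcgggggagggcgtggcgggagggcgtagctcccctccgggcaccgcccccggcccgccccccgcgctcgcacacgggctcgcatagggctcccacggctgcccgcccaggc

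The response moved a large part of the reads. The 1143 genes called at least 2-fold higher held 7.54 to 7.73% of the reads of a KO library under DMSO and 25.6 to 26.1% under DMXAA. The 1416 genes called at least 2-fold lower went from 5.66 to 5.73% to 1.46 to 1.49%. Reads also became concentrated, since 409 to 427 genes held 50% of the reads of a DMSO library and 294 to 298 genes those of a DMXAA library. Psap, whose product is cut into the saposins of the lysosome, took the most reads in every library: 4.74 to 4.99% under DMSO and 5.87 to 6.19% under DMXAA. A gain in reads depends on the length of the transcript as well as on its number.

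The 10 greatest gains in normalized count included 3 class I heavy chain genes, Ly6e, Ly6a and Irf7. Ly6e, a membrane protein that blocks entry of coronaviruses, had 151703, 130350 and 170094 under DMSO and 2055490, 2077190 and 2070550 under DMXAA (log2 3.79, SE 0.0783). Ly6a, which encodes the surface antigen Sca-1, had 6679, 5884 and 7297 under DMSO and 1036030, 1031310 and 1041430 under DMXAA (log2 7.30, SE 0.0661). Irf7, the interferon regulatory factor that amplifies the interferon response, had 5761, 5277 and 6959.6 under DMSO and 708298, 743318 and 723968 under DMXAA (log2 6.93, SE 0.0828). In all 3 every DMXAA library stood far above every DMSO library, and the DMXAA libraries lay close together. The class I heavy chains H2-K1 (log2 2.37, SE 0.0371), H2-D1 (log2 1.40, SE 0.0431) and H2-L (log2 1.35, SE 0.038), the B cell and macrophage lectin Cd72 (log2 2.39, SE 0.0679), the cathepsin Ctss (log2 1.09, SE 0.0424), Psap (log2 0.70, SE 0.0456) and the ferritin heavy chain Fth1 (log2 0.57, SE 0.0598) made up the rest. Reads of H2-L and H2-D1, which are near copies, cannot be told apart with certainty.

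The 10 greatest losses in normalized count included Apoe, Lyz2, Selenop and Csf1r. Apoe, the apolipoprotein that carries cholesterol out of macrophages, had 647609, 573658 and 637568 under DMSO and 161165, 180762 and 159244 under DMXAA (log2 -1.89, SE 0.0607). Lyz2, the lysozyme of myeloid cells, had 543116, 528093 and 596351 under DMSO and 220208, 224710 and 220453 under DMXAA (log2 -1.32, SE 0.0477). Selenop, the secreted selenium carrier, had 277060, 275784 and 272743 under DMSO and 56407, 54527 and 50296 under DMXAA (log2 -2.36, SE 0.0455). All DMXAA libraries of these genes lay below all DMSO libraries. Csf1r, the receptor for the growth factor M-CSF, fell by 0.68 on the log2 scale. Igf1, insulin-like growth factor, changed by -1.44 (SE 0.0382), the actin gene Actg1 by -1.05 (SE 0.0374) and Aplp2 by -0.99 (SE 0.0458). The translation elongation factor Eef1a1 (log2 -0.67, SE 0.0383), the ribosomal protein Rps19 (log2 -0.69, SE 0.0406) and the inhibitory receptor Sirpa (log2 -0.25, SE 0.0361) completed the 10. Together the 10 gaining genes held 7.70 to 8.25% of reads under DMSO and 14.8 to 14.9% under DMXAA. The 10 losing genes held 3.96 to 4.04% and 1.5 to 1.55%.

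The pathway that DMXAA enters held changes in both directions, at shares near those over all genes. Of the cGAS-STING signalling genes, 10 of 26 rose and 8 fell, with a median of 0.11 that becomes -0.28 with equal totals, against 33.7% higher, 32.9% lower and a median of -0.0033 over all genes. The counts of the lists that follow are to be read against these shares over all genes. Some lists also count genes with a group mean under 10, whose choice as members favours a difference. Here and below, values joined by "to" are mean normalized counts ± SD over the 3 libraries of a group. Sting1, the target of DMXAA, rose from 4186 ± 302 to 9507 ± 355 (log2 1.19), with 4036, 3988 and 4533 under DMSO and 9842, 9545 and 9135 under DMXAA in the single libraries and no overlap. The DNA exonuclease Trex1 rose from 1409 ± 159.9 to 13032 ± 887 (log2 3.21), the nucleotide hydrolase Samhd1 from 32778 ± 394 to 202834 ± 5605 (log2 2.63) and the RNA editor Adar from 12725 ± 467 to 56253 ± 609.8 (log2 2.14), while the RNase H subunit gene Rnaseh2c fell (-0.71). Enpp1, which degrades the cyclic dinucleotide that activates STING, fell from 2437 ± 206 to 502 ± 98.1 (log2 -2.29). Slc19a1, an importer of cyclic dinucleotides, fell by 0.99 on the log2 scale, and the kinase gene Ikbke fell by 0.80. Further regulators of STING also fell, the ubiquitin ligases Dtx4 (-0.90) and Trim32 (-0.64), the autophagy kinase Ulk1 (-0.50) and the acyltransferase Zdhhc1 (-0.30).

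Sensors of RNA and DNA rose as a group. Of the cytosolic and endosomal nucleic acid sensors 16 of 18 rose and 1 fell (median 1.41). The Z-nucleic acid sensor Zbp1 had 574, 565 and 516 under DMSO and 29203, 31603 and 29766 under DMXAA, a change of 5.77 (SE 0.0586), and the groups were far apart. The RNA helicases of the RIG-I family rose together, Ddx58 from 1741 ± 127 to 19397 ± 336 (log2 3.48), Ifih1 from 2724 ± 182 to 23888 ± 418 (log2 3.13) and Dhx58 from 1226 ± 92.0 to 13995 ± 341 (log2 3.51). Dhx9, another helicase, fell by 0.61. Among the surface Toll-like receptors and adaptors 9 of 15 rose and 5 fell (median 0.24, or -0.15 with equal totals). Cd180, a relative of TLR4, rose from 13185 ± 469 to 85647 ± 1324 (log2 2.70) and its partner Ly86 by 1.62. The receptor for bacterial lipoproteins Tlr2 had 4875, 4697 and 5241 under DMSO and 1100.1, 1066 and 1167 under DMXAA and fell by 2.15. Cd14, the co-receptor for lipopolysaccharide, had 16028, 15296 and 17024 under DMSO and 2869, 2620 and 2511 under DMXAA and fell by 2.60. In both genes every DMXAA library was below every DMSO library. The signalling kinases Irak1 (-0.27), Irak2 (-0.15) and Irak3 (-0.49) fell slightly.

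No interferon gene reached the level of a member. Ifnb1 had 19 reads in all 6 KO libraries, and the other interferon genes of the list were not among the tested genes. Of the receptor chains, Ifnar1 of the type I interferon receptor fell by 0.35 and Ifngr1 of the interferon gamma receptor by 0.80. Below the receptor, the JAK-STAT pathway had 19 of 28 genes higher and 3 lower, with a median of 0.31 that becomes -0.08 with equal totals. Stat2, which interferon receptors activate, had 3099.8, 2971 and 3019 under DMSO and 46205, 47952 and 47193 under DMXAA (log2 3.96, SE 0.0408). The groups were tight and did not overlap. Usp18, a protease that ends interferon signalling, rose from 644 ± 52.2 to 37536 ± 1864 (log2 5.86), and Stat3 rose by 1.19. Stat4, which relays interleukin 12 signals, ran the other way, from 756 ± 76.1 to 49.7 ± 9.86 (log2 -3.91).

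Among the interferon regulatory factors 6 of 11 rose and 3 fell (median 0.73). Irf7 led by a wide margin. Irf1 rose from 8652 ± 201 to 31577 ± 687 (log2 1.87), Irf9, the DNA-binding partner of STAT2, from 6541 ± 603 to 17603 ± 1251 (log2 1.43), Irf2 by 1.09, Irf5 by 0.73 and Irf2bpl by 1.01. Irf3, the factor that STING activates by phosphorylation, was not called, with 3669, 3837 and 3969 under DMSO and 4132, 4052 and 4060.1 under DMXAA and a change of 0.09. The groups of Irf3 did not overlap but were separated by little. Irf8, a lineage factor of macrophages, fell by 0.17, Irf2bp2 by 0.88 and Irf4, a factor of alternative activation, by 2.17, while Irf2bp1 (-0.14) was not called.

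Most antiviral effector lists rose in all or all but 1 of their tested members, where 33.7% of all genes rose, and the PARP and TRIM families were mixed. Of the IFIT and IFITM families 10 of 11 rose and 0 fell (median 6.43). Ifit1 rose from 236 ± 33.6 to 20374 ± 689.5 (log2 6.43), Ifit2 from 1845 ± 279.7 to 179366 ± 5708 (log2 6.61), Ifit3 from 748 ± 165 to 74753 ± 4839.7 (log2 6.66), Ifit1bl2 by 8.07 and Ifit3b by 7.19. The IFITM genes, whose products block viral fusion, moved less: Ifitm3 by 2.68, Ifitm6 by 4.30, Ifitm1 by 1.01 and Ifitm2 by 0.54, while Ifitm10 (-0.28) was not called. Of the OAS family, which makes short oligoadenylates on binding double-stranded RNA, 8 of 8 rose and 0 fell (median 3.99). Oasl1, a regulator of Irf7 translation, had 264, 239 and 336 under DMSO and 60355, 67331 and 65235 under DMXAA (log2 7.85, SE 0.107), with no overlap. Oas3 rose from 3579.8 ± 66.1 to 55692 ± 944 (log2 3.96), and Oasl2 (4.20), Oas1g (4.18), Oas1b (4.03), Oas1a (3.60), Oas2 (3.31) and Oas1c (2.12) rose as well.

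The interferon-inducible GTPases attack the vacuoles of intracellular pathogens. All 11 guanylate-binding protein genes rose, with a median of 6.5 and a range of 4.26 for Gbp9 to 10.57 for Gbp4. In 2 of these 11 genes the mean of a group was under 10. They became members through the other group, which favours a difference. Gbp2b had no reads under DMSO and 247, 282 and 301 under DMXAA, at least 303-fold more. Gbp2 rose from 362 ± 14.2 to 40386 ± 3014 (log2 6.80) and Gbp5, a regulator of inflammasomes, from 95.7 ± 20.3 to 7668 ± 996 (log2 6.32). The others were Gbp6 (6.70), Gbp10 (6.5), Gbp3 (5.62), Gbp7 (5.58) and Gbp8 (5.04). Of the immunity-related GTPases, Mx proteins included, 11 of 12 rose and 0 fell (median 4.33). Tgtp2 had 129, 154 and 122 under DMSO and 38623, 40218 and 42763 under DMXAA (log2 8.23, SE 0.0854), with tight groups far apart. Mx1 rose from 315 ± 46.4 to 35922 ± 2829 (log2 6.84), Mx2 by 5.79, Ifi47 by 4.61, Igtp by 4.05, Irgm1, which spares the membranes of the cell itself, by 3.97 and Irgm2 by 3.65, while Irgq (-0.16) was not called. Gvin1 and Gm4070 were listed with identical values, and Tgtp1 and Tgtp2 are near copies, so single members of these pairs are uncertain.

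Further interferon-linked families rose in the same way. All 8 Schlafen genes, which restrict growth and translation, rose with a median of 3.60. Slfn2 had the smallest change (2.61) and Slfn4 the largest (9.99), with Slfn9 (4.37), Slfn3 (3.77), Slfn8 (3.43), Slfn5 (3.29) and Slfn10-ps (2.93) between. All 12 PYHIN genes, which include DNA sensors, rose with a median of 4.84, among them Ifi213 (7.26), Ifi214 (6.36), Ifi205 (5.8), Ifi208 (5.0), Ifi211 (4.67), Mndal (3.96), Ifi204 (3.76), Ifi203 (3.56) and Ifi207 (2.40). Ifi206 had 210.4, 165 and 254 under DMSO and 43763, 44960 and 44819.5 under DMXAA (log2 7.74, SE 0.125), and Aim2, the DNA sensor that builds an inflammasome, rose from 971 ± 45.1 to 2588 ± 119 (log2 1.41). Of the genes for ISG15 conjugation, which tag proteins with a ubiquitin-like modifier, 7 of 8 rose and 1 fell (median 2.97). Isg15 had 320.4, 344 and 389 under DMSO and 25446, 26671 and 26289 under DMXAA (log2 6.22, SE 0.0715), the activating enzyme Uba7 rose by 2.52, the conjugating enzyme Ube2l6 by 3.42, the ligases Herc6 by 4.24 and Trim25 by 1.90, and Herc3 by 0.23, which is -0.16 with equal totals. Ube2e2 fell by 1.10. Of the other antiviral restriction factors 23 of 24 rose and 1 fell (median 3.24). The tetherin gene Bst2 rose from 4257 ± 85.4 to 77656 ± 2842 (log2 4.19), Ifi44 from 304 ± 34.9 to 38632 ± 1325 (log2 6.99) and Cmpk2, a mitochondrial nucleotide kinase, from 522 ± 56.5 to 48145 ± 2706 (log2 6.53). Ifi27 was the member that fell, with 25371, 27543 and 26138 under DMSO and 2939, 2679 and 3083 under DMXAA (log2 -3.18, SE 0.059), and its groups did not overlap.

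Of the PARP family, enzymes that attach ADP-ribose, 11 of 16 rose and 3 fell (median 1.28). The interferon-linked members Parp11 (3.17), Parp12 (2.71), Parp14 (2.48) and the partner gene Dtx3l (2.62) rose. Parp1, which senses breaks in DNA, fell from 5579.9 ± 126 to 3342 ± 156 (log2 -0.74), and Parp4 (-0.25) and Parp16 (-0.70) fell too. Of the TRIM family of ubiquitin ligases 14 of 23 rose and 7 fell (median 0.63). Trim30a rose from 5874 ± 162 to 48828 ± 2860 (log2 3.05), Trim34a by 2.81, Trim30b by 6.72 and Pml, the scaffold of nuclear bodies, from 3695 ± 255 to 25497 ± 266 (log2 2.79). Those that fell were Trim47 (-1.48), Trim37 (-1.08), Trim59 (-0.89), Trim24 (-0.75), Trim65 (-0.35), Trim33 (-0.28) and Trim28 (-0.27), the last a co-repressor that silences retroelements.

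**Figure D3:**
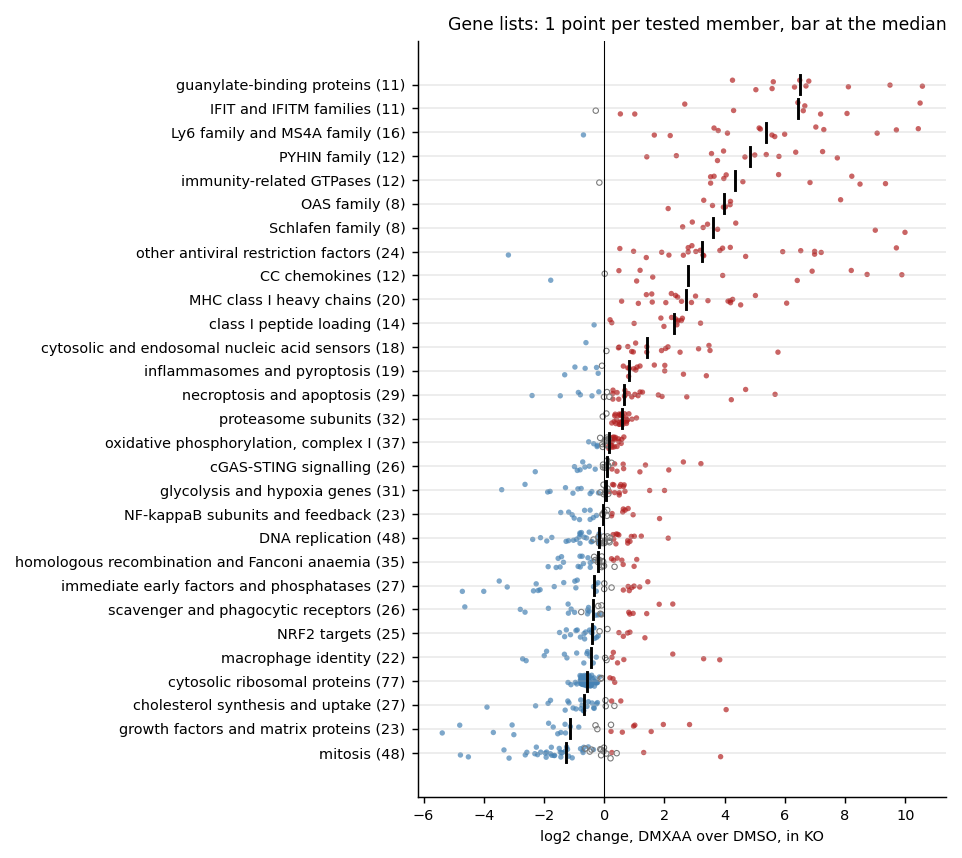
Log2 change (x axis, DMXAA over DMSO in KO) of every tested member of 29 gene lists (y axis, number of tested members in brackets), with higher genes in red, lower genes in blue, uncalled genes as open circles and a bar at each median. Nearly all members of the antiviral families shown lie to the right of 0, with Ifi27 of the other restriction factors far to the left, and mitosis and ribosomal protein genes mostly to the left; with equal totals every point moves left by about 0.39, which takes the medians of complex I, cGAS-STING and glycolysis genes below 0.

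The chemokine lists are described against 33.7% higher and 32.9% lower over all genes. In 3 of the 12 CC genes the mean of a group was under 10, so they became members through the other group. Of the CC chemokines 10 of 12 rose and 1 fell (median 2.77). The monocyte attractants rose from low levels: Ccl2 had 66.2, 60.3 and 47.4 under DMSO and 4724, 5784 and 4523 under DMXAA (log2 6.41, SE 0.137), Ccl7 had 5.37, 15.3 and 13.1 under DMSO and 1199, 1469 and 1436 under DMXAA (log2 6.91, SE 0.307) and Ccl12 had 5.37, 2.55 and 2.02 under DMSO and 1627, 1726 and 1872 under DMXAA (log2 8.73, SE 0.267). All DMXAA libraries of these genes were above all DMSO libraries. Ccl8 rose by 8.21, Ccl22, a ligand of CCR4, by 3.94, Ccl4 by 1.61, Ccl9 by 1.19, Ccl25 by 1.08 and Ccl6 by 0.49. Ccl3, a close relative of Ccl4, was not called (0.02), and Ccl27a fell by 1.78. Of the CXC and other chemokines 4 of 11 rose and 7 fell (median -1.61). In 6 of these 11 genes the mean of a group was under 10, and all 6 were called. They became members through the other group, which favours a difference, so this count and median only describe the list. The CXCR3 ligands rose, Cxcl10 with 209, 129 and 217 under DMSO and 12955, 13262 and 16340.2 under DMXAA (log2 6.28, SE 0.176), as did Cxcl16 (0.71). The neutrophil attractants fell: Cxcl1 had 78.8, 47.5 and 73.7 under DMSO and 3.16, 3.27 and 6.66 under DMXAA (log2 -3.69, SE 0.408), Cxcl2 had 243, 239 and 255 under DMSO and 17.9, 20.7 and 31.1 under DMXAA (log2 -3.38, SE 0.225) and Cxcl3 fell by 2.09. In Cxcl1 and Cxcl2 the groups did not overlap. Cxcl12, which retains cells in the marrow, had 88 reads under DMSO and none under DMXAA, at least 24.7-fold less, and it is one of the stromal markers. The medians of the GBP and CXC lists are the same with Gbp2b, Cxcl11 and Cxcl12 at their bounds, since each stays on its side of the median. Cxcl14 (-1.61), Cx3cl1 (-2.39) and Pf4 (-0.30) fell as well.

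Of the chemoattractant receptors 11 of 18 rose and 5 fell (median 0.81), against 33.7% higher and 32.9% lower over all genes. Ccrl2, which binds chemerin, rose by 2.08. The leukotriene B4 receptor Ltb4r1 rose by 3.58 from a mean of 4.49. The fractalkine receptor Cx3cr1 had 2092, 2317 and 2335 under DMSO and 537, 559 and 594 under DMXAA and fell by 1.99. The complement receptor C5ar1 fell from 31354 ± 2226 to 13101 ± 267 (log2 -1.26) and Cxcr4, the receptor for Cxcl12, from 15700.4 ± 494 to 7851 ± 999 (log2 -1.01). Fpr1 (-1.16) and Gpr183 (-0.75), receptors for formyl peptides and oxysterols, fell.

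Secreted cytokines moved in both directions, as all genes did with 33.7% higher and 32.9% lower. Of the cytokine genes 12 of 23 rose and 6 fell (median 0.44). The death ligand Tnfsf10 had 22.4, 22.9 and 27.3 under DMSO and 1219, 1293 and 1338 under DMXAA (log2 5.68, SE 0.133). Il15, which sustains NK and memory T cells, rose from 1524 ± 86.2 to 10929 ± 457 (log2 2.84). The antagonists rose too: Il18bp, which captures interleukin 18, had 1173, 1062 and 862 under DMSO and 47087, 49175 and 46513 under DMXAA (log2 5.54, SE 0.094) and Il1rn, the interleukin 1 receptor antagonist, had 979, 973 and 1029 under DMSO and 21848, 23431 and 23093 under DMXAA (log2 4.52, SE 0.0506). Neither overlapped between the groups. Il1b fell from 364 ± 84.0 to 85.7 ± 28.3 (log2 -2.10), Gdf15 by 1.5, Il16 by 1.45, Osm by 1.08, and Tgfb1 and Ebi3 by 0.42 each. The genes Tnf and Il6, for classical inflammatory cytokines, were not called. Tnf had 1198, 1119 and 1359.6 under DMSO and 1263, 1283 and 1504 under DMXAA, and Il6 had 16.1, 6.79 and 16.1 under DMSO and 6.31, 35.9 and 20.0 under DMXAA, with overlapping groups. Of growth factors and matrix proteins 7 of 23 rose and 13 fell (median -1.13). The matrix protein Tgfbi rose from 25879.9 ± 2414 to 184048 ± 5523 (log2 2.83), the inhibitor Timp1 by 1.96, Mmp8 by 1.56, Mmp13 by 0.97 and Adam8 by 0.60. The elastase Mmp12 fell from 43626 ± 1348 to 13468 ± 357 (log2 -1.70).

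Complement genes moved in both directions, as all genes did with 33.7% higher and 32.9% lower. Of these genes 9 of 19 rose and 10 fell (median -0.30). The components of the C3 convertases rose: C3 had 5315, 5393 and 6216 under DMSO and 233046, 238918 and 243053 under DMXAA (log2 5.40, SE 0.0582), Cfb had 217, 384 and 384 under DMSO and 103072, 108708 and 108231 under DMXAA (log2 8.39, SE 0.18), C4b rose by 6.6 and C2 by 2.95. The groups of C3 and Cfb were far apart. The proteases C1ra (2.02), C1rb (2.58) and C1s1 (3.55) rose with them, as did the receptors C3ar1 (0.74) and, by an amount near 0 with equal totals, Cr1l (0.39). C1qa, C1qb and C1qc, the recognition subunits, fell by 0.92, 0.48 and 0.58. Itgam, a chain of complement receptor CR3, fell from 58882 ± 2582 to 24906 ± 616 (log2 -1.24).

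Genes of antigen presentation on class I molecules rose. All 20 MHC class I heavy chain and related genes rose, with a median of 2.73, from Mr1 at 0.58 to H2-Q6 at 6.06. H2-T22 rose from 21914 ± 506 to 399534 ± 23293 (log2 4.19), H2-Q7 from 2442 ± 182 to 79365 ± 4291 (log2 5.02) and H2-Q4 from 3128 ± 80.8 to 34104 ± 744 (log2 3.45). The H2-Q and H2-T genes are near copies, so reads may be shared among them. Of the class I peptide loading genes 13 of 14 rose and 1 fell (median 2.30). The peptide transporter Tap1 had 6603, 6479 and 6752 under DMSO and 58443, 62012 and 61814 under DMXAA (log2 3.20, SE 0.0414). The inducible proteasome subunits Psmb8 (2.37), Psmb9 (2.60) and Psmb10 (2.43) rose, and the chaperone Canx fell by 0.34. Of the proteasome subunits 30 of 32 rose and 0 fell (median 0.58), with Psmc5 highest at 1.07, Psma5 at 0.92 and Psme4 at 0.74. Of MHC class II presentation genes 11 of 14 rose and 0 fell (median 0.89). The class II chain H2-Ab1 had 923, 805 and 967 under DMSO and 2634, 2873 and 2744 under DMXAA (log2 1.62, SE 0.0788), the invariant chain Cd74 rose from 9156 ± 1078 to 24318 ± 769 (log2 1.42), and the ubiquitin ligase Marchf1, which removes class II from the surface, rose by 1.37. H2-Oa, a chaperone that dampens class II loading, rose by 4.51 from a mean of 2.19.

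Of co-stimulatory and checkpoint ligands 10 of 19 rose and 7 fell (median 0.72). Cd274, which encodes PD-L1, had 1331, 1218 and 1232 under DMSO and 16850, 18535 and 19548 under DMXAA (log2 3.86, SE 0.0644). Siglec1, the sialic acid receptor CD169, had 6095, 5833 and 5931 under DMSO and 80428, 77180.5 and 80972 under DMXAA (log2 3.74, SE 0.0399). Both were higher in every DMXAA library. Lgals9, a ligand of TIM-3, rose from 9115 ± 469.6 to 90216 ± 5274 (log2 3.31), the phagocytosis inhibitor Cd47 from 31339 ± 1180.3 to 133291 ± 1521 (log2 2.09) and the activation antigen Cd69 by 4.67. Vsir (-0.87), Cd276 (-0.83), Cd80 (-0.77), Nectin2 (-0.60), Havcr2 (-0.55) and Cd48 (-0.29) fell.

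NF-kappaB genes had no common direction, and neither did all genes, with 33.7% higher and 32.9% lower. Of subunits and feedback regulators 8 of 23 rose and 10 fell (median -0.05). The feedback regulators were among those that fell: Tnfaip3, which encodes A20, had 2057, 2085 and 2097 under DMSO and 955, 923 and 1108 under DMXAA (log2 -1.07, SE 0.0774), and Nfkbiz had 3214, 3275 and 3684 under DMSO and 1759, 1577 and 1755 under DMXAA (log2 -1.0, SE 0.0719). All DMXAA libraries of both were below all DMSO libraries. Tnfaip2 fell from 10642 ± 538 to 3907 ± 207 (log2 -1.45). Traf1 rose from 941 ± 35.3 to 3367 ± 200.2 (log2 1.84), Bcl3 by 0.96, Traf2 by 0.79, the subunit Rel by 0.70, Nfkbib by 0.63, Tnip2 by 0.61, and Chuk (0.26) and Cyld (0.24) by amounts that turn negative with equal totals. Of immediate early factors and phosphatases 7 of 27 rose and 17 fell (median -0.36). Myc had 723, 917 and 848 under DMSO and 46.3, 52.3 and 53.3 under DMXAA (log2 -4.0, SE 0.135), Egr2 had 1193, 1288 and 1262 under DMSO and 116, 152 and 132 under DMXAA (log2 -3.22, SE 0.114), and Egr3 fell by 4.72. Against them, the phosphatase Dusp1 (1.45), Klf6 (1.18), Ier5 (0.99), Zfp36, which destabilises cytokine mRNA, (0.92), Atf3 (0.83), Junb (0.79) and Klf4 (0.63) rose.

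Genes of inflammatory and regulated cell death rose more often than they fell. Of inflammasome and pyroptosis genes 13 of 19 rose and 5 fell (median 0.83). Casp4, which senses lipopolysaccharide in the cytosol, had 923, 893 and 955 under DMSO and 5318, 5980.4 and 5908 under DMXAA (log2 2.63, SE 0.064) and Casp1 had 4485, 4657 and 4671 under DMSO and 18056, 18518 and 19056 under DMXAA (log2 2.01, SE 0.0435). Neither overlapped. Nod1 rose by 2.01 and Naip2 by 0.98. The inflammasome scaffold Nlrp3 had 8221, 7610 and 8118 under DMSO and 4126, 4020.3 and 4036 under DMXAA and fell by 0.97, the adaptor Pycard fell by 0.26, Nlrc4 by 0.63 and Ninj1, which ruptures the plasma membrane, by 1.31. Of necroptosis and apoptosis genes 20 of 29 rose and 6 fell (median 0.67). The pore former Mlkl had 846, 749 and 803 under DMSO and 14485, 14812 and 15477 under DMXAA (log2 4.22, SE 0.0595), Xaf1 rose from 934 ± 58.7 to 24276 ± 1272 (log2 4.70) and Daxx from 7151 ± 275 to 47886 ± 2689.6 (log2 2.74). Members of the anti-apoptotic BCL2 group fell, Bcl2 from 184 ± 37.4 to 33.6 ± 1.04 (log2 -2.40), Bcl2a1b by 1.46 and Bcl2a1a by 0.79, along with Bax (-0.41), Fas (-0.86) and Ripk1 (-0.18).

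Small-molecule mediators of macrophages changed strongly in single enzymes. Of nitric oxide, itaconate and arginine metabolism genes 12 of 24 rose and 7 fell (median 0.17, or -0.21 with equal totals). Nos2, the inducible nitric oxide synthase, had 0, 8.49 and 18.2 under DMSO and 969.7, 1099 and 1196 under DMXAA (log2 7.58, SE 0.835). Acod1, which makes itaconate, had 498, 537 and 542 under DMSO and 12160.3, 12219 and 14836 under DMXAA (log2 4.63, SE 0.0817). Ass1, which regenerates arginine, had 251, 216 and 198 under DMSO and 7359, 7393 and 8621 under DMXAA (log2 5.13, SE 0.0987). In all 3 the DMXAA libraries lay above the DMSO libraries. Enzymes of eicosanoid synthesis were among those that fell: Alox5 from 123 ± 15.5 to 12.3 ± 7.86 (log2 -3.48), Ltc4s from 2443 ± 178 to 625 ± 101 (log2 -1.98), Ptgs1 from 2418 ± 115 to 691 ± 50.4 (log2 -1.81) and Lta4h from 8826 ± 296 to 5268 ± 178 (log2 -0.74). Arg2 fell by 0.57.

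Lipid genes fell more often than they rose, where 33.7% of all genes rose and 32.9% fell. Of cholesterol synthesis and uptake genes 3 of 27 rose and 21 fell (median -0.68). The sterol carrier Stard4 had 924, 1002 and 969 under DMSO and 212, 199 and 182 under DMXAA (log2 -2.28, SE 0.0958) and Fdft1, squalene synthase, fell from 10173 ± 566 to 4395 ± 195 (log2 -1.21). No DMXAA library of these genes reached a DMSO library. Ch25h, which makes an antiviral oxysterol, rose by 4.05 from a mean of 4.50, and Nsdhl rose by 0.55. Of fatty acid synthesis genes 3 of 15 rose and 9 fell (median -0.49), with Fasn from 1632 ± 46.3 to 610.4 ± 29.3 (log2 -1.42), Scd2 at -2.17 and Fads2 at -2.48. Of LXR targets and lipid handling genes 8 of 24 rose and 12 fell (median -0.11). The cholesterol exporter Abcg1 rose from 6169.8 ± 288 to 18722 ± 305 (log2 1.6), the lysosomal sterol carrier Npc2 from 80084 ± 5570.3 to 235390 ± 3699 (log2 1.56), the scavenger receptor Msr1 from 14905 ± 1592 to 39575 ± 3263 (log2 1.41) and the lipid droplet protein Plin2 from 49232 ± 1026 to 107764 ± 4649.9 (log2 1.13), against the fall of Apoe.

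Genes of central carbon metabolism are read against 33.7% higher and 32.9% lower over all genes. Respiratory chain genes rose more often than they fell on the deposited scale, and their medians turn negative with equal totals. Of glycolysis and hypoxia genes 13 of 31 rose and 11 fell (median 0.05, or -0.34 with equal totals). Hk3, a hexokinase of myeloid cells, had 55794, 53848 and 54324 under DMSO and 216833, 219644 and 220596 under DMXAA (log2 2.0, SE 0.0347) and the regulator Pfkfb3 rose from 7215 ± 501 to 20513 ± 1041 (log2 1.51). Known targets of hypoxia-inducible factors were among those that fell, Egln3 from 451 ± 57.6 to 42.0 ± 8.70 (log2 -3.41), Aldoc from 3963 ± 139 to 639 ± 50.9 (log2 -2.63), Ndrg1 from 4449 ± 251 to 1276 ± 45.4 (log2 -1.80) and Vegfa from 39404 ± 1879 to 16157 ± 1258 (log2 -1.29). Of complex I genes 20 of 37 rose and 4 fell (median 0.15, or -0.24 with equal totals), and of complexes II to V 22 of 34 rose and 4 fell (median 0.19, or -0.20 with equal totals). Cycs, cytochrome c, rose from 2060.4 ± 55.9 to 6388 ± 91.2 (log2 1.63). Of tricarboxylic acid cycle genes 6 of 21 rose and 8 fell (median -0.05), with the isocitrate dehydrogenases Idh1 from 31915 ± 1716 to 10517 ± 232 (log2 -1.6) and Idh2 from 2972 ± 181 to 1114 ± 66.6 (log2 -1.41). No mitochondrially encoded transcript was among the tested genes.

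Redox and stress genes were split, and are read against 33.7% higher and 32.9% lower over all genes. Of NRF2 targets 5 of 25 rose and 18 fell (median -0.40). Gclm, of glutathione synthesis, fell from 4748 ± 355 to 1979.5 ± 88.9 (log2 -1.26) and Txnrd1 from 32092 ± 539 to 16741 ± 680.5 (log2 -0.94). Keap1, which degrades NRF2, rose from 6138 ± 369 to 15652 ± 547 (log2 1.35), and Txn1 (0.85), Prdx1 (0.78), G6pdx (0.63) and Hmox1 (0.49) rose as well. Of the integrated stress and unfolded protein responses 17 of 30 rose and 10 fell (median 0.21, or -0.17 with equal totals). Ddit3, which encodes CHOP, had 1539, 1664 and 1622 under DMSO and 13502, 14308 and 14096 under DMXAA (log2 3.12, SE 0.0512), Atf4 had 5791, 5763 and 6748 under DMSO and 20762, 22054 and 21653 under DMXAA (log2 1.82, SE 0.063) and Mthfd2 rose by 2.44. Both groups of Ddit3 and of Atf4 were tight and apart. Eif2ak2, the RNA-activated kinase PKR, rose by 2.04, while Eif2ak3 (-0.81) and Eif2ak4 (-0.35), kinases for misfolded protein and for lack of amino acids, fell. Ddit4 (-1.57), Herpud1 (-1.29), Hsp90b1 (-0.47), Psat1 (-1.16) and Vldlr (-3.08) also fell. Of heat shock chaperones 10 of 20 rose and 3 fell (median 0.12, or -0.26 with equal totals), with Ahsa1 at 1.12 and Dnaja1 at 0.85. Of iron handling genes 6 of 17 rose and 7 fell (median -0.02): ceruloplasmin (Cp) rose from 249.7 ± 26.8 to 1148 ± 83.3 (log2 2.20), and the iron exporter Slc40a1 fell from 8486 ± 592 to 2595 ± 191 (log2 -1.71).

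DNA repair is the process that Mgmt belongs to, and its lists are read against 33.7% higher and 32.9% lower over all genes. The mismatch repair, excision repair and end joining lists lay near or below these shares. Of the alkylation damage and mismatch repair genes 6 of 18 rose and 5 fell (median -0.04). Msh6, a mismatch recognition protein, had 702, 800.4 and 713 under DMSO and 442, 497 and 386 under DMXAA (log2 -0.75, SE 0.108). Msh3, which recognises small loops, had 677, 735 and 703 under DMSO and 1317, 1424 and 1430.3 under DMXAA (log2 0.98, SE 0.0722). Neither overlapped between groups. The RNA demethylase Alkbh5 rose by 0.34, which is -0.05 with equal totals, Fto fell by 0.30, and Pms1, a mismatch repair gene, fell by 0.66. Of base and nucleotide excision repair genes 11 of 33 rose and 11 fell (median -0.04), with the polymerase Polb from 2542 ± 185 to 4944 ± 165 (log2 0.96), the glycosylases Mutyh from 205 ± 19.4 to 71.4 ± 43.1 (log2 -1.73) and Ung from 105 ± 37.6 to 40.1 ± 18 (log2 -1.42), and the ligase Lig1 from 4859.7 ± 494 to 2770.3 ± 231 (log2 -0.81). Of homologous recombination and Fanconi anaemia genes 7 of 35 rose and 15 fell (median -0.20). Rad51c fell from 169 ± 43.1 to 49.0 ± 24.9 (log2 -1.86), and Fanca rose from 378 ± 10.6 to 803 ± 92.7 (log2 1.08). Of end joining genes 4 of 14 rose and 4 fell (median 0.03, or -0.36 with equal totals). The nuclease Artemis (Dclre1c) rose from 6954 ± 371 to 14229 ± 561 (log2 1.03) and Xrcc5, which encodes Ku80, fell from 124 ± 52.5 to 20.4 ± 10.9 (log2 -2.57). Members of the catalytic kinase complex of end joining also fell, Prkdc by 0.49 and Xrcc6 by 0.39. Of p53 targets 12 of 26 rose and 11 fell (median 0.06, or -0.33 with equal totals), with Gadd45g from 568 ± 27.0 to 2235 ± 201 (log2 1.97), Mdm2 at 0.81, Sesn1 from 12779.9 ± 247 to 2283 ± 71.2 (log2 -2.48), Gadd45a at -1.84 and Tnfrsf10b at -1.67.

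Cell cycle genes fell in mitosis and were mixed in replication. Of mitosis genes 3 of 48 rose and 34 fell (median -1.27). Cenpf, a kinetochore protein, had 29.5, 56.0 and 50.5 under DMSO and 0, 0 and 3.33 under DMXAA (log2 -4.78, SE 0.691), Prc1, of the central spindle, had 1175, 1347 and 1394 under DMSO and 391, 372 and 403 under DMXAA (log2 -1.74, SE 0.0883) and Cenpa, the centromere histone, fell from 4911 ± 402 to 1055 ± 62.9 (log2 -2.22). All DMXAA libraries were below all DMSO libraries. Tpx2, a spindle assembly factor, ran strongly against the list with 1486, 1625 and 1608 under DMSO and 23496, 22962 and 22379 under DMXAA (log2 3.87, SE 0.051), and Pttg1, which encodes securin, rose from 3214 ± 298 to 7956 ± 331 (log2 1.31); Tacc3 rose by 0.25, which is -0.14 with equal totals. Of DNA replication genes 13 of 48 rose and 22 fell (median -0.17). The sliding clamp Pcna had 11832, 12422 and 11451 under DMSO and 23229.9, 24848 and 23366 under DMXAA (log2 1.0, SE 0.0468) and Mcm10 rose by 1.23. Gins1 (0.86), Cdt1 (0.78), Rfc1 (0.78), Rfc3 (0.48) and Rfc5 (0.44), of replication licensing and clamp loading, rose too. The repressor E2f7 fell from 55.3 ± 16.8 to 10.0 ± 4.19 (log2 -2.38) and its relative E2f8 rose by 0.90. Of cyclins and kinase inhibitors 10 of 19 rose and 7 fell (median 0.16, or -0.23 with equal totals), with Ccnd2 from 73.8 ± 10.2 to 582 ± 62.7 (log2 2.97), Mxd1, an antagonist of Myc, from 543 ± 17.7 to 2115 ± 139 (log2 1.96) and its partner Max at 0.92. Ccnd1 (-0.62), the retinoblastoma gene Rb1 (-0.58) and Cdk4 (-0.33) fell. In bulk RNA, fewer cells in a state and less RNA per cell cannot be told apart.

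Ribosomal protein genes fell almost without exception. Of 77 cytosolic ribosomal protein genes 72 fell and 3 rose, with a median of -0.58 that becomes -0.97 with equal totals. Rpl3 fell from 25881 ± 976 to 11237 ± 320.3 (log2 -1.20) and Rpl14 from 13649 ± 172 to 7255 ± 345 (log2 -0.91). Rps24 (0.35) and Rps20 (0.29) were among those that rose, and with equal totals they stand at -0.04 and -0.10. Of translation factors 15 of 36 rose and 13 fell (median -0.02): the elongation factors Eef2 (-0.68), Eef1b2 (-0.71) and Eef1d (-0.49) fell, and the initiation factor Eif6 rose from 2147 ± 135 to 4072 ± 222 (log2 0.92). Eef2k, the kinase that inhibits elongation, fell from 3699 ± 344 to 1114 ± 57.5 (log2 -1.73). Of ribosome biogenesis genes 12 of 30 rose and 7 fell (median 0.05, or -0.34 with equal totals), with the pseudouridine synthase Dkc1 at -0.75 and nucleophosmin (Npm1) at -0.50. Of amino acid carriers 8 of 16 rose and 7 fell (median 0.20, or -0.18 with equal totals), with Slc7a5 from 125 ± 26.8 to 441 ± 35.0 (log2 1.84) and its partner Slc3a2 from 28187 ± 1090.2 to 59757 ± 3219 (log2 1.08).

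Macrophage identity genes fell more often than they rose. Of these 7 of 22 rose and 13 fell (median -0.42). The high-affinity IgG receptor Fcgr1 had 8613, 8310.2 and 9094 under DMSO and 118464, 128842 and 124781 under DMXAA (log2 3.84, SE 0.0476), Aif1, which encodes IBA1, rose from 2935 ± 296 to 28955 ± 2722 (log2 3.30) and the phagocytic kinase Axl from 12598 ± 115 to 61102 ± 2059 (log2 2.28). Gas6, the ligand of Axl, had 22181, 20919 and 22676 under DMSO and 3466, 3463 and 3123 under DMXAA (log2 -2.71, SE 0.0554), so the receptor rose and its ligand fell, each without overlap. Spi1, which encodes the lineage factor PU.1, rose by 0.65. Of lineage and activation transcription factors 19 of 36 rose and 12 fell (median 0.23, or -0.16 with equal totals). Batf2 rose from 179 ± 14.5 to 1746 ± 267 (log2 3.27) and Arid5a from 1374 ± 155 to 7992 ± 653 (log2 2.54). Cebpa, a myeloid factor, had 15217, 15965 and 16226 under DMSO and 4281, 4285 and 3992 under DMXAA (log2 -1.92, SE 0.0487), and Rxra fell from 10602 ± 224 to 3839.5 ± 173 (log2 -1.47). Batf3 (-1.52), Bhlhe40 (-1.5), Ets2 (-1.32) and Prdm1 (-1.30) fell too. Of alternative activation markers 5 of 14 rose and 8 fell (median -1.14): Il4ra rose from 7374 ± 852 to 23361 ± 621 (log2 1.67), and Stab1 fell from 48588 ± 1418 to 21284 ± 798 (log2 -1.19).

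Surface receptors were rearranged. Of scavenger and phagocytic receptors 6 of 26 rose and 15 fell (median -0.39), and Clec4a3 (1.83), Scarf1 (0.96), Clec4e (0.85) and Clec12a (0.81) rose. Of Fc gamma receptors 4 of 7 rose and 3 fell (median 0.94). Fcgr4, which binds IgG of activating subclasses, had 2304, 1913 and 2227 under DMSO and 19332, 19836 and 19469.6 under DMXAA (log2 3.19, SE 0.0671), and Fcgr3, the low-affinity activating receptor, had 60193, 48074 and 63903 under DMSO and 21819.5, 21822 and 21688 under DMXAA (log2 -1.39, SE 0.0865). These changes ran in opposite directions, each without overlap. Fcgr2b, the inhibitory receptor, rose by 1.15, the shared chain Fcer1g by 0.94, and Fcgrt, which recycles IgG, fell by 1.64, as did Fcrls by 3.36. Of the Ly6 and MS4A families 15 of 16 rose and 1 fell (median 5.38). In 3 of these 16 genes the mean of a group was under 10, and all 3 were called. They became members through the other group, which favours a difference. Ms4a6d rose from 4292 ± 251 to 73239.8 ± 1785 (log2 4.09), and Plaur, the urokinase receptor, fell by 0.69. Of integrins and selectins 8 of 21 rose and 11 fell (median -0.26): Itgb7 rose from 3186 ± 101 to 16221 ± 409 (log2 2.35), Itga6 fell from 24308 ± 791 to 7603 ± 267 (log2 -1.68) and Itga9 from 198 ± 37.7 to 19.3 ± 10.2 (log2 -3.39).

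Lysosome, autophagy and chromatin lists held genes of both directions, as all genes did with 33.7% higher and 32.9% lower. Of cathepsins and lysosomal hydrolases 15 of 35 rose and 11 fell (median 0.03, or -0.36 with equal totals). Ctsc, which activates serine proteases of granules, rose from 7159 ± 498 to 32929 ± 1694 (log2 2.20), and Gusb fell from 84854 ± 2625 to 52337 ± 1376 (log2 -0.70) and Ctsf by 1.26. Of lysosome membrane and acidification genes 12 of 28 rose and 8 fell (median 0.06, or -0.32 with equal totals), with Lamp2 from 137525 ± 2590.1 to 278682 ± 7315 (log2 1.02) and Slc15a3, a lysosomal peptide carrier, from 13899 ± 144 to 31824 ± 1458 (log2 1.19). Of autophagy genes 18 of 29 rose and 9 fell (median 0.22, or -0.17 with equal totals), with Atg13 at 1.07, Optn at -0.94 and Wipi1 at -1.12. Of histone genes 9 of 12 rose and 2 fell (median 0.52): H2ac18 rose from 380 ± 54.7 to 1718 ± 27.0 (log2 2.18) and H3f3b, for the replacement histone, from 16636 ± 903 to 39920 ± 2436 (log2 1.26). Of chromatin regulators 18 of 31 rose and 9 fell (median 0.25, or -0.14 with equal totals), with Kat2b at 0.93 and Hdac9 at -1.28. Of osteoclast and fusion genes 5 of 10 rose and 4 fell (median 0.12, or -0.27 with equal totals), with Ctsk from 918 ± 116 to 2160 ± 14.5 (log2 1.24), Atp6v0d2 from 4084 ± 144 to 1610.1 ± 34.3 (log2 -1.34) and Mmp9 at -3.0.

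Markers of other cell types moved with DMXAA too. Of 8 monocyte markers 5 rose and 3 fell. Among them Plac8, Ly6c1 and Ly6c2 rose, and Ccr2 rose from 712 ± 42.8 to 2075 ± 116 (log2 1.54). F13a1, Fn1 (-3.69) and Chil3 (-1.10) fell. In 2 of these 8 genes the mean of a group was under 10, so they became members through the other group, which favours a difference. The 9 listed dendritic cell markers had a summed level of 57.3 to 84.0 normalized counts under DMSO and 742 to 755 under DMXAA. Of these 9 genes 4 were below the level of a member, and 3 of the other 5 reached it through the DMXAA libraries, so no count of calls is given. Xcr1, a chemokine receptor of cross-presenting dendritic cells, was one of the 3 and had 2.69, 0.849 and 3.03 under DMSO and 392, 418 and 505 under DMXAA. Clec9a, a receptor of the same cells for dead cells, had 26.0, 25.5 and 42.4 under DMSO and 225, 108 and 135 under DMXAA. Of 7 stromal markers, 3 of which reached the level of a member through the DMSO libraries, 5 fell and 0 rose, and 3 were called when KO DMSO replicate 2, KO DMSO replicate 3 or KO DMXAA replicate 1 was left out. Kdr, the receptor VEGFR2 of endothelial cells, had 747, 742 and 708 under DMSO and 6148, 6017 and 6151 under DMXAA (log2 3.06, SE 0.0549), while Pecam1 (-0.25) and Cdh5 (1.32), further endothelial markers, were not called. The part of these cells in the values was not tested.

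RefSeq windows were held for 10105 of the 12704 members (79.5%), too few to compare classes of all members, so motif shares are given only for lists with at least 80% of windows. Of the 11 IFIT and IFITM windows 7 (63.6%) held the ISRE core, against 8.57% of all windows. In the PYHIN family 8 of 11 windows held it (72.7%), and in the Schlafen family 3 of 7 (42.9%). Of 42 mitosis windows 29 (69.0%) held the cell cycle homology region CHR (TTTGAA on either strand), against 18.1% of all windows, and 29 held a CCAAT box (CCAAT on either strand), against 37.9%. Of 39 DNA replication windows 13 (33.3%) held an E2F site (TTTCCCGC or TTTGGCGC on either strand), against 1.63%. Of 22 NRF2 target windows 9 (40.9%) held an antioxidant response element (ARE; TGACNNNGC on either strand), against 12.5%, and of 9 CXC and other chemokine windows 4 (44.4%) held a kappaB site, against 0.622%. Of 26 proteasome windows 3 (11.5%) held the ISRE core. The lists were drawn up from the known biology of these genes, so the shares describe them and add nothing to the calls.

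Promoters of 3 further genes, chosen after their values were seen, show what these shares look like in sequence. Ifit1 (chr19:34640639-34640888, plus strand), which rose by 6.43, has ISRE cores at -109, -103 and -84, of which the first and second overlap. Ifi209 (chr1:173630609-173630858, plus strand), which rose by 5.38, has no ISRE core in this window and a TATA box at -212. Plk1 (chr7:122159185-122159434, plus strand), a mitotic kinase that fell by 2.62, has a CCAAT box at -14. Its match to the CHR letters TTTGAA lies after the start, outside the stretch shown. The form TTTAAA of the CHR, which this stretch holds, was not searched in any window. Capitals mark ISRE cores in Ifit1, the TATA box in Ifi209 and the CCAAT box in Plk1.
Ifit1: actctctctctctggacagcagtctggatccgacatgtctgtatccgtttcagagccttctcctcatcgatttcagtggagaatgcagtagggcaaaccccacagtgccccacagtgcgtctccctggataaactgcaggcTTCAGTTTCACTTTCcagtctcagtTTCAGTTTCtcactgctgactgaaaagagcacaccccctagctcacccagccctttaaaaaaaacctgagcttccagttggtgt
Ifi209: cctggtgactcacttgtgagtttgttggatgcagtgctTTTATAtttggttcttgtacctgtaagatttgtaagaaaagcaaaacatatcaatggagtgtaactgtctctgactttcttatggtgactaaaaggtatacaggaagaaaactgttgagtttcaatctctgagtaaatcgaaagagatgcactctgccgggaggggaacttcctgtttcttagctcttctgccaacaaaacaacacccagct
Plk1: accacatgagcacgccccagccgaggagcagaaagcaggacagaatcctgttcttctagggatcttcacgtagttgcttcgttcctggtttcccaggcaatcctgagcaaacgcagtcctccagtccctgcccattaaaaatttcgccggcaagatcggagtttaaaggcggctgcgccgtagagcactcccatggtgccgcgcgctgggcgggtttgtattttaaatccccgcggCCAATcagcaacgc

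Genes that rose strongly often lay side by side. Along the chromosomes (mm10), 36 runs of 3 or more neighbouring members all rose at least 4-fold, and 3 such runs fell at least 4-fold. The run with the most genes was the PYHIN cluster, with 11 at chr1:173468485-174031810 with a median of 5.0. A run of 10 genes around the H2-T class I genes lay at chr17:35994453-36129425 (median 3.52). A run of 9 genes held the Schlafen family at chr11:82942341-83215154 (median 3.43) and one of 8 genes the MS4A family at chr19:11375523-11604849 (median 5.17). The IFIT cluster of 6 genes at chr19:34550694-34650009 had a median of 6.93, and runs of 6 genes with the GBP family lay on chromosomes 3 and 5 (medians 6.32 and 6.6). Cxcl9, Art3, Cxcl10 and Cxcl11 formed a run at chr5:92321347-92414628, and Ccl2, Ccl7, Ccl12 and Ccl8 one at chr11:82035571-82116799. On the same chromosome as the Cxcl9 run, Cxcl3, Cxcl1, Cxcl2 and their neighbour Mthfd2l all fell (chr5:90786103-91021368, median -3.07). The other falling runs held the lipid transporters Abca9, Abca6 and Abca5 with Map2k6, and thymosin genes with a neighbour on X. Neighbours within these families can share reads where they are near copies.

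**Figure D4:**
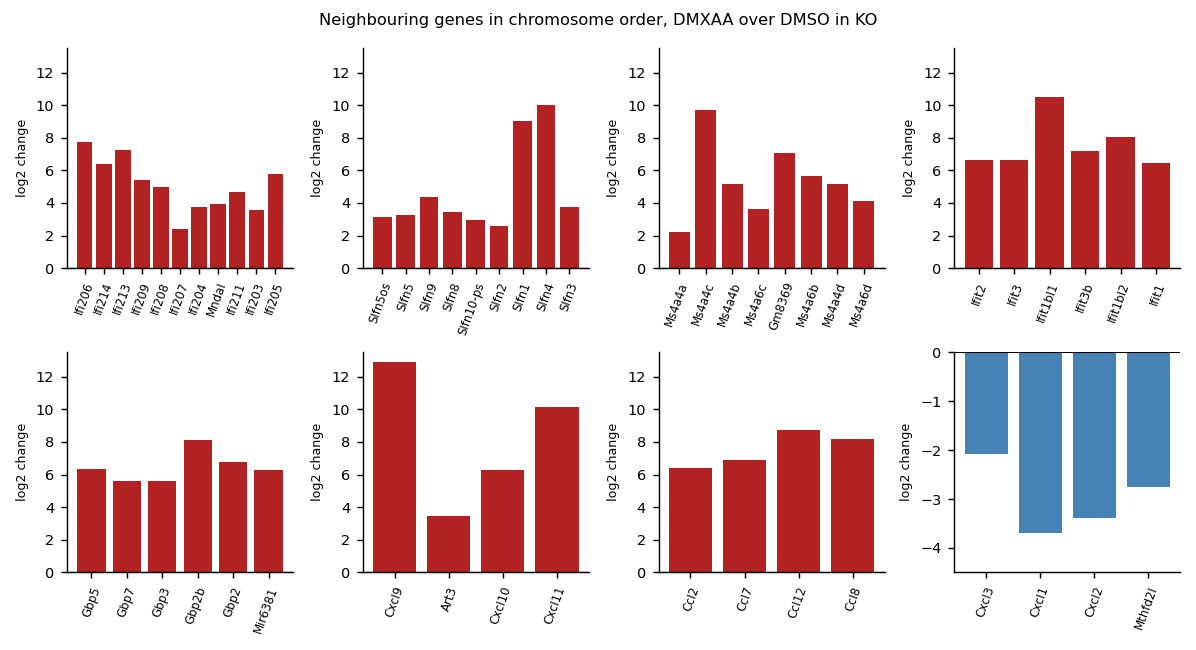
Log2 change (bars, y axis, DMXAA over DMSO in KO) of neighbouring genes in chromosome order (x axis) for 7 runs that rose at least 4-fold and 1 run that fell at least 4-fold. Within a run the size differs, as in the Schlafen genes, where Slfn2 stands at 2.61 and Slfn4 at 9.99.

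Where the responses of KO and WT differed, the KO response was more often the higher of both. The difference of the responses was tested in 12556 genes over all 12 libraries, and 1098 (8.74%) were called: 689 (5.49%) with KO above WT and 409 (3.26%) with KO below WT. Without KO DMSO replicate 1 the latter count was 265. Of the genes called higher in KO 567 differed, 472 above and 95 below WT. Of the genes called lower in KO 403 differed, 144 above and 259 below. KO was above WT in 62.8% of the called differences on the deposited scale, in 57.0% with equal upper quartiles and in 39.2% with equal totals, so this balance also rests on the scaling.

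Both arms of the comparison entered these differences. Values of KO and WT cells share a scale in the tables that hold all DMSO or all DMXAA libraries. Of the genes called higher in KO, 472 had a response above that of WT. In these the median of KO minus WT was -0.33 under DMSO and 0.13 under DMXAA. All KO libraries were below all WT libraries under DMSO in 360 of these genes, and above all WT libraries under DMXAA in 253. Over all 12539 genes with values under both treatments, these numbers were 2212 and 2385. The gap under DMSO was the larger in 319 of them (67.6%), and in 50.3% of all genes. In the 259 genes called lower in KO with a response below that of WT, the gap under DMSO was the larger in 32.0%. These counts use the same libraries as the test and only describe it.

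Among gene lists, with 5.49% above and 3.26% below over all genes, several antiviral families had many differences, mostly with KO above WT, and others had few. Schlafen genes had 8 above and 0 below of 8, PYHIN genes 10 above and 0 below of 12, immunity-related GTPases 9 above and 0 below of 12, and the OAS family 7 above and 0 below of 8. The PARP family had 0 above and 0 below of 16, the TRIM family 4 above and 1 below of 23, the IFIT and IFITM families 4 above and 0 below of 11, ISG15 conjugation genes 4 above and 0 below of 8 and the other restriction factors 11 above and 0 below of 24. The Ly6 and MS4A families had 9 above and 0 below of 16, CC chemokines 7 above and 1 below of 12, glycolysis and hypoxia genes 11 above and 3 below of 31 and DNA replication genes 12 above and 1 below of 48. Guanylate-binding proteins had 2 above and 0 below of 11, MHC class I genes 3 above and 0 below of 20 and NF-kappaB genes 0 above and 7 below of 23. The cGAS-STING genes had 5 above and 1 below of 26: Cgas itself rose by 1.37 in KO and 0.90 in WT, and Sting1 by 1.19 and 0.80. These and the other list members below were named after their values were seen. Slfn4 rose by 9.99 in KO and 8.21 in WT, Oasl1 by 7.85 and 6.16, Ccl5 by 9.89 and 7.56, and Cxcl9 by 12.89 and 9.33. With each genotype on its own scale, Slfn4 under DMSO had 80.6, 92.5 and 63.6 in KO and 175, 199 and 435 in WT. Under DMXAA Slfn4 had 73071, 81536 and 87526 in KO and 78198.5, 73018 and 70073 in WT. Cxcl9 under DMSO had 0.895, 0.849 and 1.01 in KO and 9.27, 2.54 and 22.8 in WT. Under DMXAA Cxcl9 had 14591, 14275 and 14649 in KO and 6191, 5627 and 6630 in WT. The NF-kappaB feedback genes Tnfaip3 (-1.07 in KO, -0.30 in WT), Nfkbie (-1.18, -0.29) and Nfkbia (-0.65, -0.25) fell further in KO. Among glycolytic enzymes Pgk1 changed by 0.51 in KO and -0.33 in WT, Pkm by 0.50 and -0.16, and Gapdh by 0.35, which is -0.04 with equal totals, and -0.22. The helicase loader Cdc6 had differences of -0.19 in KO, not called, and -1.24 in WT.

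Single genes show the forms this took. Irf7 changed by 6.93 in KO and 4.84 in WT, a difference of 2.08 (SE 0.132, adjusted p = 4.54e-07). Under DMSO it had 6269, 5762 and 7559 in KO and 29013, 26027 and 22131 in WT, and under DMXAA 634880, 664400 and 647315 in KO and 597830, 614517 and 600716 in WT. KO libraries were below WT libraries without DMXAA and above them with it. C3 changed by 5.40 in KO and 3.65 in WT, a difference of 1.75 (SE 0.0717, adjusted p = 8.92e-09), with 5784, 5889 and 6751 in KO and 16615, 16742 and 17220 in WT under DMSO and 208890, 213552 and 217319 in KO and 175783, 174305 and 173277 in WT under DMXAA. Tlr2 fell by 2.15 in KO and changed by -1.21 in WT, a difference of -0.94 (SE 0.0934, adjusted p = 3.0e-05). Under DMSO it had 5304, 5129 and 5692 in KO and 3946, 4293 and 4391 in WT, and under DMXAA 986, 953 and 1044 in KO and 1579, 1391 and 1510.3 in WT. Tlr9, the endosomal DNA receptor, rose less in KO, by 2.12 against 3.18, a difference of -1.06 (SE 0.121, adjusted p = 8.70e-05), with 2794, 2762 and 2849.7 in KO and 4053, 4159 and 4524 in WT under DMXAA. Cd36, the fatty acid scavenger receptor, was not called in KO (-0.13) and changed by -1.08 in WT, a difference of 0.95 (SE 0.0778, adjusted p = 7.62e-06).

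**Figure D5:**
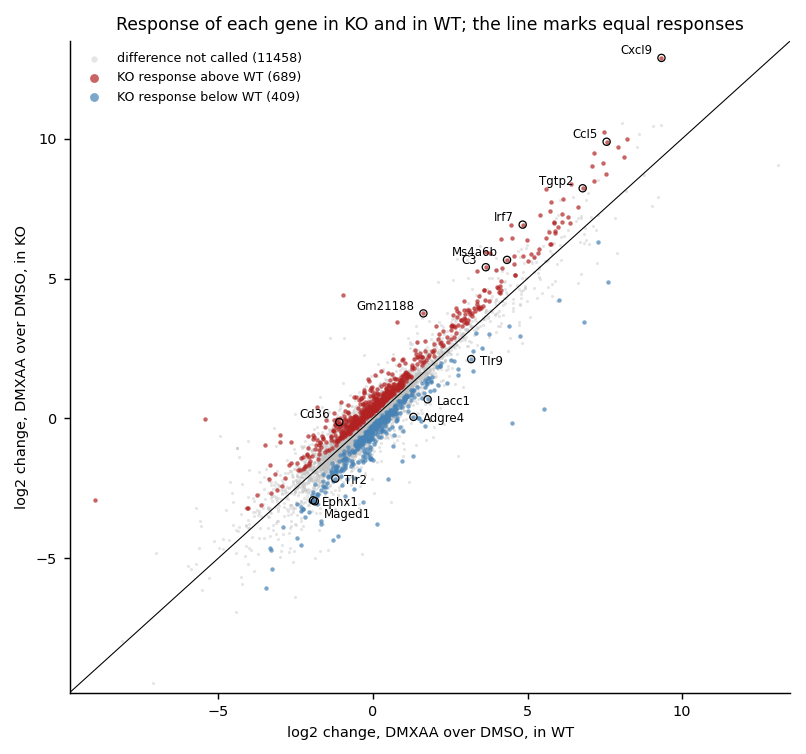
Log2 change of each gene under DMXAA in KO (y axis) against that in WT (x axis), 12556 genes, with 689 genes whose KO response was above that of WT in red, 409 below in blue, the others in grey and a line at equal responses. Irf7, C3 and Cxcl9 lie above the line, and Tlr9, Lacc1 and Adgre4 below it.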

How the data were processed

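RNA-seq of 12 libraries was analysed from 4 deposited tables of 6 libraries each, and the 3 KO DMSO and 3 KO DMXAA libraries of the KO table carry the response. The labels' protocols name a stranded mRNA library kit for DNBSEQ. HISAT2, featureCounts and the build mm10 are named per the submitters' processing notes (the versions are not given in the sources used here). What was deposited is a signal per gene, normalized counts that the authors scaled by 1 factor per library within each table. Every value is a whole multiple of a smallest step (tolerance 0.01), so whole reads were recovered as value over step, and they were the same in both tables that hold a library. The authors' deposited columns of log2 changes and adjusted p-values were used only for comparison: 8309 of the 12704 members pass 0.05 in the authors' deposited table, and 8093 of those calls match the direction found here.

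Genes whose normalized count averaged 10 or more were tested with limma 3.58.1 (lmFit, eBayes with trend, R 4.3.3) on log2(normalized count + 1). The added 1 makes changes of low genes smaller. Changes are differences of mean logs, so an uneven low group can also make them larger than the ratio of means. Gbp4 changed by 10.57 here and by 10.03 in the authors' deposited column, and Cxcl9 by 12.89 and 13.96. Two-sided p-values were adjusted by Benjamini-Hochberg over all genes tested, and called means an adjusted p under 0.05. The difference of the KO and WT responses was fitted over 12 libraries, each response within its own table. All adjusted p-values in the text come from these limma fits. Counting intervals are exact at 95%, and with reads that carry no molecular identifiers they cover counting error only, as does the floor of 3 reads. On simulated counts for the 12704 genes of the KO response the test recovered 93% of 100 genes changed by a log2 of 1 and 98% of those changed by 2, with 7 false calls, and for the difference of responses (12556 genes) 94% and 100%, with 3 false calls. The simulated counts used the same setting of spread for every gene and changed few genes. They cannot show how many calls are false in the data, where spread varies and most genes were called.

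Named genes are Mgmt, the 15 highest and 15 lowest changes (called, mean 100 or more, groups apart), the 10 greatest gains and losses in normalized count, and, in each of 78 gene lists, the 4 members with the smallest p, the extremes, those against the majority and all of a list of at most 12 tested; not every such member is printed, and some genes are not reported here. For the difference of responses they are the 12 smallest p in each direction with a KO mean of at least 100. Genes outside this rule, among them Tnf, Il6, Adgre1, C1qa, C1qb, C1qc, Plk1, the neighbours in runs and the list members given for KO against WT, were chosen after their values were seen. The members, rules and lists were chosen with earlier results of these data known. Gene positions are from GENCODE vM21 for 15148 of 15557 symbols (97.4%), and promoter windows from RefSeq GRCm38.p6. The libraries were not treated as paired by the number in a sample's title. Deviations of same-numbered DMSO and DMXAA libraries from their group means correlated by only 0.043, 0.032 and 0.064. Each library still correlated best with its own number. Alternatives were other scalings, pseudocounts and filters, a replicate block, edgeR 4.0.16 and DESeq2 1.42.0 on recovered reads, and leaving out each library.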

Additional observations from a re-analysis of the deposited data

Results flagged for a closer look

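The genes below are listed because a test of the difference itself, KO response minus WT response on the log2 scale in limma over all 12 libraries, passed an adjusted p of 0.05, and because they have the smallest p in their direction among genes with a KO mean of at least 100. None of them lost its call or changed direction under any alternative run for it. The differences are statements about these 12 libraries, and their causes were not tested.

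With the KO response above that of WT, the interferon-linked genes differed by 2.08 in Irf7, 1.44 in Tgtp2, 1.33 in Ms4a6b, 1.22 in Ifi209 and 0.69 in Oas3, all of which rose in both genotypes (WT changes of 4.84, 6.78, 4.34, 4.16 and 3.27). Under DMSO Tgtp2 had 140.3, 168 and 133 in KO and 459.6, 433 and 509.5 in WT, and under DMXAA 34619.7, 35948 and 38235 in KO and 42645, 43910 and 40656 in WT, so its KO libraries were below all WT libraries under both treatments, by a larger ratio under DMSO. C3 differed by 1.75 and the predicted gene Gm21188 by 2.12 (3.75 in KO, 1.63 in WT). The protease gene Adam8 differed by 0.87 (0.60 in KO, -0.27 in WT). The replication clamp Pcna differed by 1.11 (1.0 in KO, -0.11 in WT), with 20822, 22210.3 and 20892 in KO and 17828, 17861 and 16421 in WT under DMXAA. Osteopontin (Spp1) differed by 0.79, Cd36 by 0.95 and the chaperone Dnajb4 by 1.06: in KO they were not called (0.04, -0.13 and 0.0011), and in WT they changed by -0.75, -1.08 and -1.05.

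With the KO response below that of WT, the receptors of microbial products differed by -0.94 in Tlr2 and -1.06 in Tlr9, and the adhesion receptor Adgre4 by -1.26 (0.05 in KO, not called, and 1.31 in WT). Lacc1, an enzyme of purine metabolism in macrophages, differed by -1.09 (0.68 in KO, 1.77 in WT), with 4108, 4191 and 4350.1 in KO and 7894, 7501 and 7371 in WT under DMXAA. Maged1 also differed by -1.09, Arl5c by -0.99, the GTPase regulator Arhgap19 by -0.89, the epoxide hydrolase Ephx1 by -1.0, the phosphodiesterase Pde4b by -1.02, the semaphorin receptor Plxnd1 by -0.77, the ciliary gene Ttc21b by -0.99 and heparanase (Hpse) by -0.52. Of these, Maged1, Ephx1 and Arhgap19 changed in KO by -2.96, -2.93 and -1.08, and by -1.87, -1.93 and -0.20 in WT.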

How the results depend on the processing

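Scaling moved the counts of the KO response most, and a block by library name those of the differences. With equal library totals 1998 genes were called higher and 7824 lower in KO, 2348 of the latter at least 2-fold, 754 differences of response lay below WT, and 28 lists had more members higher and 43 more members lower, against 50 and 21 as deposited. With equal upper quartiles 32 lists had more lower. These choices shift all genes at once, by construction. Leaving out each library in turn gave 7832 to 8148 called genes in KO (3962 to 4157 higher, 3820 to 3994 lower), 1117 to 1149 higher and 1360 to 1436 lower at least 2-fold, 838 to 1114 differences of response (553 to 709 above, 265 to 405 below WT), and 47 to 50 and 21 to 24 lists. A replicate block by the number in the sample titles gave 8267 called genes in KO (4173 higher, 4094 lower) and 873 differences, and every library correlated best with its own number, a hint from the data and not from the design. A replicate block by the number in the library names, 2 of which occur under both treatments, gave 7990 called genes in KO but 484 differences (350 above, 134 below WT), and the cause was not tested. edgeR kept 8328 and DESeq2 8188 of the 8462 calls in direction. With equal totals 1484 of the 8462 called genes and the medians of 20 lists change sign, and with equal upper quartiles 70 genes and 9 medians. Mgmt, the leading genes, the greatest gains and losses and the genes of the differences kept their sign under every alternative run for them. Low counts limit precision, since genes with a mean of 10 to 100 had a median SE of 0.355.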

Other observations

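Beyond the lists, 22 genes had no reads in any KO library under DMSO and were members through their DMXAA level. Besides Lipg, Cxcl11, Apol9a and Gbp2b they include the serine protease inhibitor Serpina3f, with 223, 279.9 and 228 normalized counts under DMXAA, at least 267-fold more than the floor of 3 reads over the group. The hormone gene Sct, for secretin, had 114, 225 and 142 (at least 175-fold), the cytokine-like Fam3b 151, 163 and 148 (at least 169-fold) and the phospholipase Pla1a 157, 145 and 124 (at least 156-fold). In the other direction the inactive rhomboid protease Rhbdf1 had 85.9, 126 and 162 under DMSO and no reads under DMXAA, at least 114-fold less, and the receptor phosphatase Ptpru had 48.3, 76.4 and 58.5 and no reads, at least 56.8-fold less. These genes passed the filter through 1 group only, so their difference was set by how they became members.

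Several runs of rising neighbours lay outside the families of the lists. The Phf11 genes with Setdb2 (5 genes at chr14:59276913-59440884, median 5.93) rose at least 4-fold throughout. So did Sp110, Sp140 and Sp100 with 4 further genes (chr1:84992690-85709998, median 4.12) and Klrk1 with 3 Klra receptor genes (chr6:129610323-131247362, median 4.09). Klra2 had 124, 100.2 and 125 under DMSO and 2799.7, 3138 and 3307 under DMXAA, and Klrk1 had 0, 0 and 9.08 under DMSO and 464, 682 and 439.8 under DMXAA. Their DMXAA libraries lay above all DMSO libraries. The 5 listed T and NK cell markers summed to 51.0 to 66.6 normalized counts under DMSO and 65.2 to 96.9 under DMXAA. The part of T and NK cells in the values of these runs was not tested.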
